A study of Saccharomyces cerevisiae with 24 samples.

Results

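Expression before sulfite was compared between yeast that carried the *S. paradoxus* allele of *FZF1* and yeast that carried the *S. cerevisiae* allele, on 3 arrays each, which are 6 of the 24 arrays of the series. Both groups share an S288c-background strain (*Mat a*, *ho*, *ura3-52*) in which the native *FZF1* was deleted with the KANMX cassette and one whole *FZF1* gene region, with its noncoding flanks, was integrated at *ura3* together with the URA3 marker of pRS306. The allele therefore stood away from its own locus in every strain, in a background that is *S. cerevisiae* throughout. Cultures of 100 mL were grown for 3 h at 30 °C in YPD with 75 mM tartaric acid at pH 3.5 and sampled right before sodium sulfite was added (0 min). The remaining arrays hold both alleles 15 min after 1 mM sulfite, and chimeras in which the *S. cerevisiae* 5′ noncoding region precedes the *S. paradoxus* coding region (C.P.) or the reverse (P.C.). Each array gives the log2 ratio of 1 sample over a pool of all RNA samples, so a value below 0 is a level below that pool, which itself holds sulfite-treated RNA, and no value is an absolute level. The methods describe independent transformants of each construct and the labels number the replicates, so p-values measure the spread between these cultures and arrays.

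Fzf1 is a zinc finger transcription factor that activates *SSU1*, the plasma membrane pump that exports sulfite, and *YHB1*, the flavohemoglobin that detoxifies nitric oxide, has also been placed under its control. Sulfite is a preservative of wine and an intermediate of sulfate assimilation, the pathway that supplies methionine and cysteine. In budding yeast the genes of the general stress response, of trehalose and glycogen metabolism and of respiration commonly move against those of ribosome biogenesis, with the growth rate and the supply of glucose.

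The array labelled *S. cerevisiae*, 0 min, replicate 2 stood apart at the exchanged gene, and from the other arrays of its group at the marker. *FZF1* read 0.18, −3.63 and −0.11 (log2 ratio) on *S. cerevisiae* replicates 1, 2 and 3, and −5.57, −4.91 and −4.44 on the *S. paradoxus* replicates. The 12 arrays of strains with an *S. paradoxus* coding region, over both times, lay between −5.57 and −2.47, and the other 11 arrays of strains with an *S. cerevisiae* coding region lay between −0.11 and 2.21, so replicate 2 read as its label does not say. *URA3*, the marker at the site of integration, read −1.97, 1.20 and −1.89 against −1.61, −1.58 and −1.30. Over both times *URA3* ran up to 2.30 on the arrays with an *S. paradoxus* coding region and up to 1.17 on the other arrays with an *S. cerevisiae* coding region. On replicate 2, 28 genes lay over 1 (log2) from the mean of the other arrays of its group. These were 26 and 56 genes for replicates 1 and 3 and 19 to 110 genes for the *S. paradoxus* arrays. Over genes, replicate 2 correlated at 0.887 with replicate 1, 0.895 with *S. paradoxus* replicate 1 and 0.911 with *S. paradoxus* replicate 2. *S. cerevisiae* replicate 1 likewise correlated at 0.912 and 0.903 with *S. paradoxus* replicates 1 and 2. The test across all genes is therefore given with and without *S. cerevisiae* replicate 2. Other differences and medians are given so at least where leaving it out moved them by over 1.5 times. The sample was in Cy3 on replicates 1 and 2 and in Cy5 on replicate 3 in both groups, and arrays of the same dye were more alike (Pearson's r over genes of 0.866 to 0.912, 7 pairs) than arrays of opposite dye (0.641 to 0.836, 8 pairs), whichever allele they held.

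**Figure D1:**
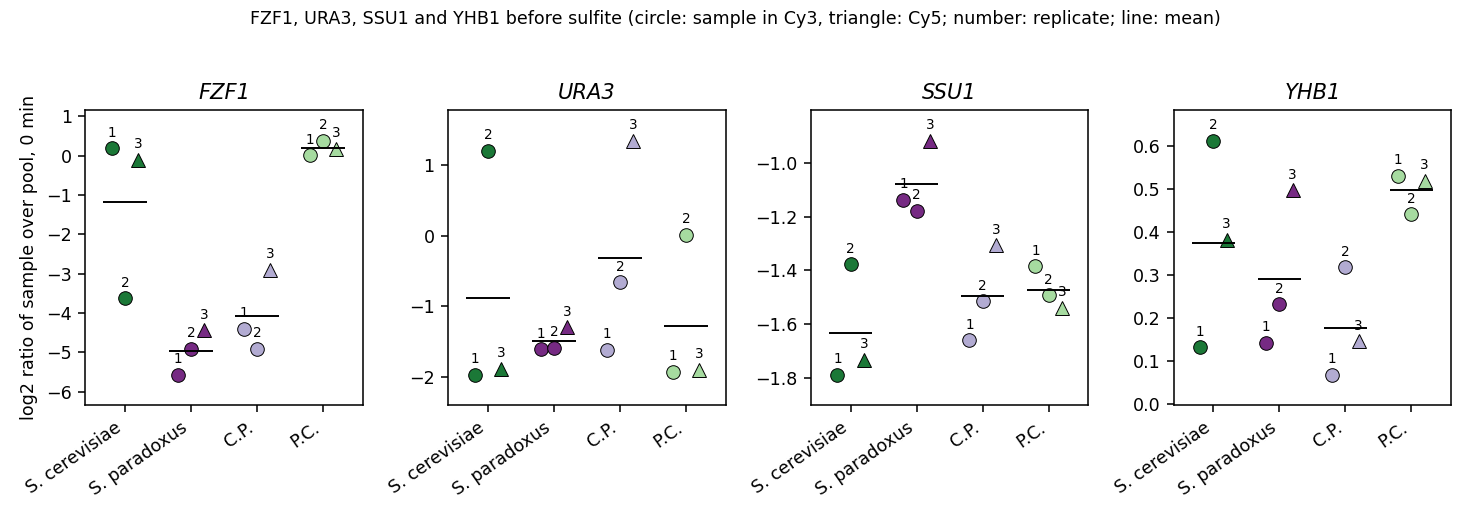
Log2 ratio of sample over pool at 0 min for 4 genes (vertical axes, 1 scale per gene) on the 3 arrays of each of 4 strains (horizontal axis), with the mean as a line, the replicate number above each point and the dye of the sample by shape. *S. cerevisiae* replicate 2 sits near the *S. paradoxus* arrays for *FZF1* at −3.63 and above them for *URA3* at 1.20, and the *S. paradoxus* arrays hold the highest *SSU1* values.

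*FZF1*, the exchanged gene itself, was the gene with the smallest p between the alleles before sulfite. The mean over *S. cerevisiae* arrays was −1.19 ± 2.12 (SD, n = 3) and that over *S. paradoxus* arrays −4.97 ± 0.57 (SD, n = 3), a difference of −3.78 (SE 0.73, adjusted p = 0.194 by limma with Benjamini-Hochberg adjustment). Without *S. cerevisiae* replicate 2 the difference was −5.01 (SE 0.56, adjusted p = 0.000125 by limma), and *FZF1* then passed the limit of 0.05. The probes are of *S. cerevisiae* design and may bind the *S. paradoxus* transcript less well, so that a difference in binding and one in mRNA level cannot be told apart on these arrays. The paper's quantitative PCR used species-specific primers. It found *FZF1* before sulfite higher with the *S. cerevisiae* coding region, by much less than the difference on these arrays. At 0 min the C.P. chimera read −4.07 and the P.C. chimera 0.18 (means), where the full length *S. cerevisiae* allele read 0.03 without replicate 2. An exact permutation test of 3 against 3 arrays cannot give a two-sided p below 0.1, which is the value it gave for *FZF1*. *URA3* differed by −0.61 (SE 0.80) with all arrays and by 0.43 (SE 0.75) without replicate 2, and neither difference passed the test.

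No other gene passed the test between the alleles before sulfite, with or without replicate 2. With all arrays limma called 0 of 4071 genes (0% at an adjusted p under 0.05), and 116 genes (2.85%) had an unadjusted p under 0.05. At that limit 203.55 genes are expected by chance, and a dye term with all arrays gave 233. The dye term also gave 0 calls, with an adjusted p for *FZF1* of 0.055 by limma. Without replicate 2 limma called 1 gene, *FZF1* (0.0246%), and 97 genes (2.38%) had an unadjusted p under 0.05. In the analysis of variance that the methods describe, the features of a gene enter as separate observations. Only its contrast at 0 min was tested here. That gave 176 of 4071 genes at P under 0.01, against 40.71 expected by chance, and 29 after Benjamini-Hochberg adjustment. Of the 176, 125 were higher and 51 lower with the *S. paradoxus* allele. Features on 1 array are not independent replicates, so these p-values come out too small. The precision bounds what could have been missed. The median SE of a difference was 0.16 (log2). The 95% confidence interval lay within 1 of 0 for 3941 of the 4070 genes other than *FZF1* (96.8%) and within 0.5 of 0 for 2588 genes (63.6%). The number of arrays and the spread between them limit this precision, and the fit held no dye or replicate term. The median SD was 0.18 over the *S. paradoxus* arrays and 0.08 over those of them in Cy3. The median absolute difference was 0.10 and the 99th percentile 0.50.

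**Figure D2:**
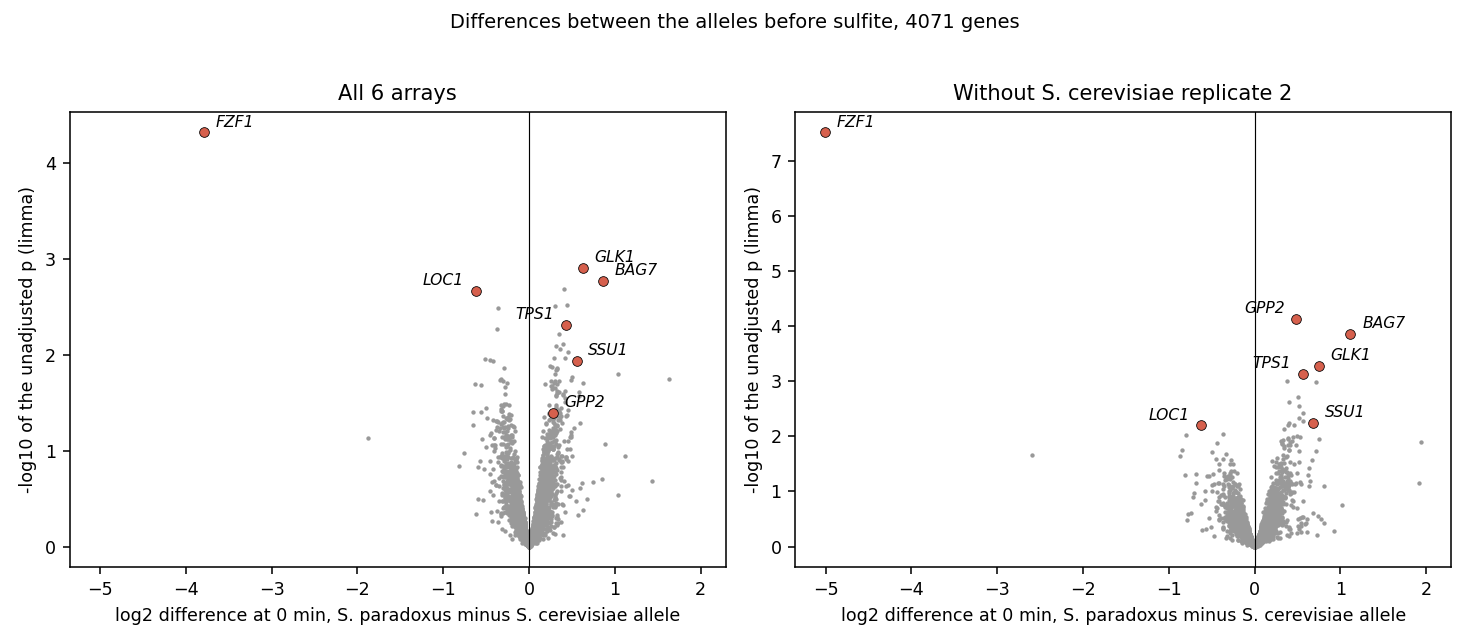
Log2 difference between the alleles at 0 min (horizontal axis) against −log10 of limma's unadjusted p (vertical axis, 1 scale per panel) for 4071 genes, with all arrays on the left and without *S. cerevisiae* replicate 2 on the right. *FZF1* stands alone at −3.78 and −5.01, and *BAG7*, *GLK1* and *GPP2* lead the higher side without passing the test.

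*SSU1*, the sulfite pump, read −1.79, −1.38 and −1.73 on the *S. cerevisiae* arrays and −1.14, −1.18 and −0.92 on the *S. paradoxus* arrays. The groups did not overlap, and the *S. cerevisiae* array closest to the *S. paradoxus* arrays was replicate 2. The difference was 0.55 (95% confidence interval 0.14 to 0.97, unadjusted p = 0.0115 by limma), and adjusted over all genes it did not pass. It was 0.68 without replicate 2, 0.42 over the Cy3 arrays and 0.81 over the Cy5 arrays. The chimeras lay between the full length alleles, with means of −1.49 ± 0.18 (SD, n = 3 arrays) for C.P. and −1.47 ± 0.08 (SD, n = 3 arrays) for P.C. All *S. paradoxus* arrays lay above all chimera arrays, whose highest values were −1.31 and −1.38. The *S. cerevisiae* arrays overlapped those of both chimeras only through replicate 2. At 15 min the same alleles differed by 1.14 (SE 0.20), and the difference at 15 min exceeded that at 0 min by 0.58 (unadjusted p = 0.0509 by limma for this change). The direction at 0 min is opposite to the paper's quantitative PCR. There, *SSU1* before sulfite was slightly higher for alleles with the *S. cerevisiae* coding region and for those with its 5′ noncoding region.

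*YHB1*, the flavohemoglobin, read 0.13, 0.61 and 0.38 with the *S. cerevisiae* allele and 0.14, 0.23 and 0.50 with the *S. paradoxus* allele. The groups overlapped, and the difference of −0.085 (95% confidence interval −0.34 to 0.17) became 0.034 without replicate 2. *ZRT1*, a zinc transporter, and *HXK2*, a hexokinase, flank the native *FZF1* locus that the deletion had altered in all strains. They differed by 0.097 (SE 0.24) and 0.13 (SE 0.13), or by 0.049 and 0.026 without replicate 2, and their arrays overlapped in either case. Genes of sulfur metabolism were set against the same measures. Of 11 genes of sulfate assimilation, 0 had arrays that did not overlap (against 5.09% of all genes higher and 2.68% lower), and their median difference was 0.13, against 0.01 over all genes. Without replicate 2 the median was 0.051, with 1 gene higher and 1 lower (9.09% each, against 8.33% and 4.35% of all genes). *MET16*, the PAPS reductase, differed by 0.31 (SE 0.21) and *MET10*, a subunit of sulfite reductase, by −0.16 (SE 0.12), and neither passed. Of 23 measured genes of methionine and cysteine metabolism, 1 (*MET32*) had arrays that did not overlap, which at 4.35% is near the 5.09% of all genes that lay higher. The median difference was 0.06, or 0.021 without replicate 2.

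Since no gene but *FZF1* passed, the genes below are those with the smallest p in each direction, and their values describe where the arrays of the groups lay. Over all genes with a value on all 6 arrays, the *S. paradoxus* arrays all lay above the *S. cerevisiae* arrays for 207 of 4069 genes (5.09%) and all below for 109 genes (2.68%). Without replicate 2, where fewer arrays must raise the count, these were 339 (8.33%) and 177 (4.35%). Among the 12 genes with the smallest p on the higher side, 9 had arrays that did not overlap, and all 12 without replicate 2. Among the 12 on the lower side, *FZF1* included, 11 did not overlap in either case. All 24 had the same direction in both dyes. Since the genes were chosen by p on these same arrays, these counts follow largely from the choice and are no independent support. The differences other than that of *FZF1* ranged from 0.31 to 0.86 on the higher side and from 0.25 to 0.62 below 0 on the lower side, each with an adjusted p of 1.00 by limma.

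The higher side included enzymes of glucose and storage carbohydrate metabolism. *GLK1*, a glucokinase that phosphorylates glucose at the start of glycolysis, read −2.35, −2.10 and −2.59 with the *S. cerevisiae* allele and −1.63, −1.69 and −1.83 with the *S. paradoxus* allele. The groups did not overlap, and the difference was 0.63 (SE 0.17, unadjusted p = 0.00124 by limma), or 0.75 without replicate 2. *TPS1*, which makes trehalose 6-phosphate, read −1.88, −1.50 and −1.92 against −1.17, −1.43 and −1.42. Its difference was 0.43 (SE 0.14), and replicate 2 was again the *S. cerevisiae* array nearest to the *S. paradoxus* ones. *GLC3*, the glycogen branching enzyme, read −2.17, −1.94 and −2.33 against −1.61, −1.58 and −2.01. Here replicate 2 alone made the groups overlap, and the difference was 0.41 (SE 0.15), or 0.52 without it. *PYK2*, the pyruvate kinase isoform that glucose represses, read −2.07, −2.00 and −1.95 against −1.58, −1.59 and −1.66, a difference of 0.40 (SE 0.13) that was also 0.40 without replicate 2.

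Mitochondrial enzymes and a regulator of glucose signalling stood beside them. *CIT1*, the mitochondrial citrate synthase, read −1.40, −1.27 and −1.59 against −1.07, −1.13 and −1.14, a difference of 0.31 (SE 0.09). *ALD4*, the mitochondrial aldehyde dehydrogenase, read −1.01, −0.71 and −1.10 against −0.40, −0.55 and −0.50, a difference of 0.45 (SE 0.16). In both genes the *S. paradoxus* arrays all lay above the *S. cerevisiae* arrays. *BCY1*, the regulatory subunit that restrains protein kinase A, read −0.66, −0.84 and −0.86 against −0.43, −0.53 and −0.34, a difference of 0.35 (SE 0.11) without overlap. *SYM1*, an inner membrane protein of mitochondria, differed by 0.32 (SE 0.11), and its groups overlapped through replicate 2.

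*BAG7*, a GTPase activating protein, had the largest difference of the 12. It read −3.96, −2.89 and −3.39 against −2.42, −2.34 and −2.92, so that only replicate 2 reached the *S. paradoxus* range. The difference was 0.86 (SE 0.24), or 1.12 without replicate 2 (SE 0.24, adjusted p = 0.190 by limma), 1.05 in Cy3 and 0.47 in Cy5. *SPO1*, *SHC1* and *DON1*, known from meiosis and spore formation, differed by 0.41, 0.44 and 0.37 (SE 0.12 to 0.13), each without overlap. Leaving out replicate 2 brought 3 genes among the 8 with the smallest p that were not among the 12 above. *GPP2*, a glycerol 3-phosphatase, read −1.43, −0.82 and −1.47 against −0.93, −0.87 and −1.09, and differed by 0.28 with all arrays and by 0.49 without replicate 2 (SE 0.10, adjusted p = 0.149 by limma). *PHM8*, a nucleotidase, and *YDC1*, a ceramidase, moved from 0.44 to 0.72 and from 0.32 to 0.50. In all 3, replicate 2 lay within or above the *S. paradoxus* range.

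**Figure D3:**
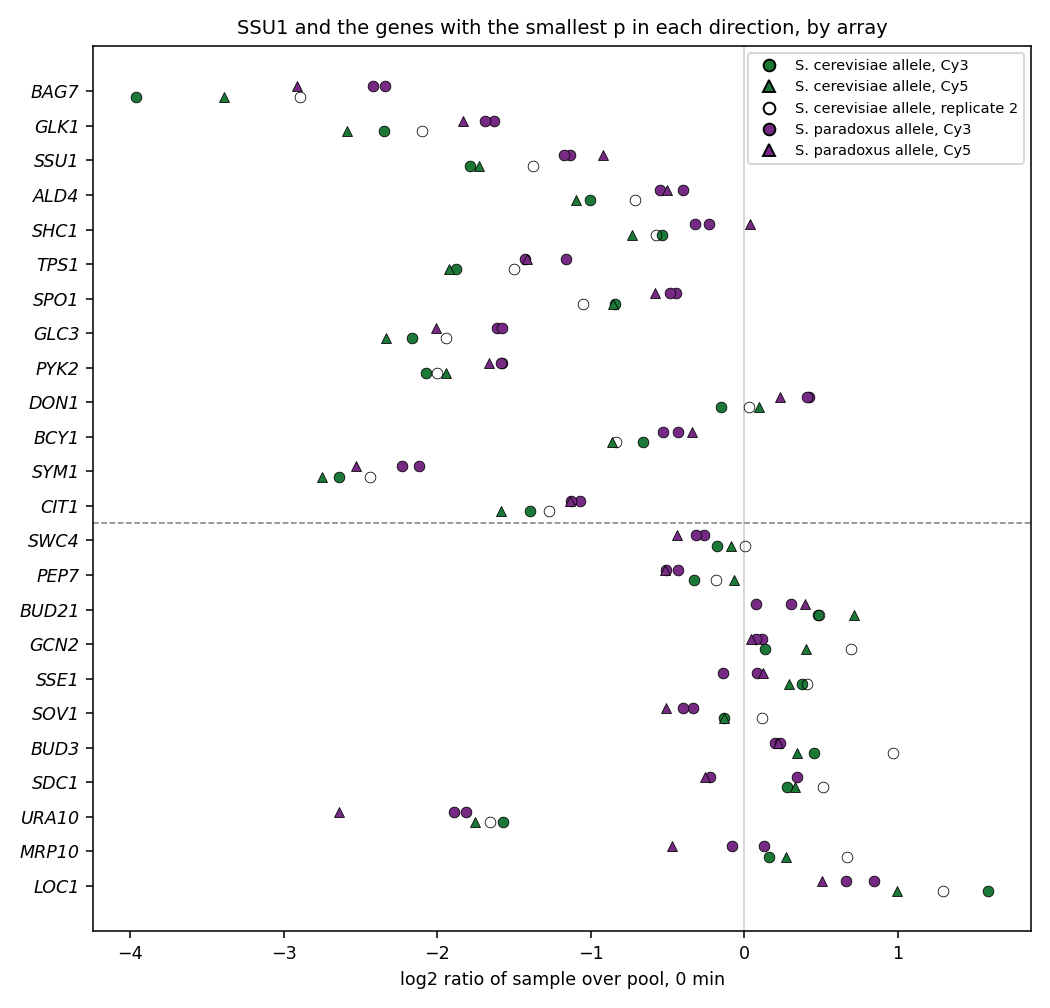
Log2 ratio of sample over pool at 0 min (horizontal axis) on each of the 6 arrays for *SSU1* and the genes with the smallest p (vertical axis; higher with the *S. paradoxus* allele above the dashed line, lower below it, *FZF1* left out). The open circles are *S. cerevisiae* replicate 2, which is the array that reaches the *S. paradoxus* points for *BAG7*, *GLC3* and *SYM1*.

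The lower side included genes of ribosome assembly, translation and the bud site. *LOC1*, which acts in the localization of *ASH1* mRNA and in assembly of the large ribosomal subunit, read 1.59, 1.29 and 0.99 with the *S. cerevisiae* allele and 0.66, 0.84 and 0.51 with the *S. paradoxus* allele. The groups did not overlap, and the difference was −0.62 (SE 0.18, unadjusted p = 0.00217 by limma), and −0.62 without replicate 2 (SE 0.20, unadjusted p = 0.00636 by limma). *BUD21*, a part of the small subunit processome, read 0.48, 0.49 and 0.71 against 0.08, 0.30 and 0.40, a difference of −0.30 (SE 0.12). *MRP10*, a protein of the mitochondrial ribosome, differed by −0.51 (SE 0.18), and *GCN2*, the kinase that phosphorylates eIF2 in amino acid starvation, by −0.33 (SE 0.13). Both differences shrank without replicate 2, to −0.36 and −0.19. *BUD3*, which marks the axial bud site, differed by −0.37 with all arrays and by −0.18 without replicate 2, where *S. cerevisiae* replicate 2 read 0.97 against 0.45 and 0.34 on the others.

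The remaining lower genes spanned unrelated roles. *SOV1*, a mitochondrial protein, read −0.14, 0.12 and −0.13 against −0.33, −0.40 and −0.51, a difference of −0.36 (SE 0.11). *URA10*, an orotate phosphoribosyltransferase, differed by −0.45 (SE 0.16), *SSE1*, an Hsp110 chaperone, by −0.34 (SE 0.13), *PEP7*, which acts in transport to the vacuole, by −0.29 (SE 0.11), and *SWC4*, a chromatin remodelling subunit, by −0.25 (SE 0.10), each without overlap. *SDC1*, a subunit of the COMPASS methyltransferase, differed by −0.42 (SE 0.15), and its arrays overlapped. Without replicate 2, *CDC14*, the phosphatase of mitotic exit, and *YKE2*, a prefoldin subunit, came among the 8 with the smallest p at −0.37 and −0.43. So did *SFC1*, *IDP2* and *POT1*, a succinate-fumarate carrier, a cytosolic isocitrate dehydrogenase and the peroxisomal thiolase, at −0.84, −0.50 and −0.80. For *POT1*, replicate 2 read −1.51 against −0.74 and −0.43 on the other *S. cerevisiae* arrays, and the *S. paradoxus* arrays read −1.46, −1.31 and −1.38.

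Gene lists were set beside all genes by the number of members whose arrays did not overlap and by their median difference, and 0 members of the 38 lists passed the test. Of 34 measured genes of the general stress response, 7 lay higher on all *S. paradoxus* arrays (20.6%, against 5.09% of all genes) and 0 lower, and the median difference was 0.20. In RNA of a whole culture, a larger share of cells that express a gene and more RNA per cell cannot be told apart. The 7 were *CTT1*, *TPS1*, *GSY2*, *GPH1*, *UGP1*, *DDR2* and *YGP1*. Without replicate 2, 17 lay higher (50%, against 8.33% of all genes) and 2 lower (5.88%, against 4.35%). The median was then 0.27. The median of the list was −2.03, −1.91 and −2.14 on the *S. cerevisiae* arrays and −1.61, −1.60 and −2.02 on the *S. paradoxus* arrays, so that *S. paradoxus* replicate 3, in Cy5, lay within the *S. cerevisiae* range.

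Of 29 genes of glycerol, trehalose and glycogen metabolism, a list that shares *TPS1*, *GSY2*, *GPH1* and *UGP1* with the stress list, 6 lay higher (20.7%) and 0 lower. Its median read −1.36, −1.36 and −1.47 against −1.17, −1.13 and −1.15, without overlap. Its median difference was 0.18, or 0.23 without replicate 2. Without that array 13 genes lay higher (44.8%, against 8.33% of all genes) and 1 lower (3.45%, against 4.35%). Among 52 genes for the respiratory chain and the citric acid cycle, 10 lay higher (19.2%) and 0 lower, among them *CIT1*, *ACO1*, *SDH1* and the cytochrome gene *CYT1*, with a median difference of 0.11. Without replicate 2 these were 16 (30.8%, against 8.33% of all genes) and 0. All 18 genes of glycolysis had a higher mean with the *S. paradoxus* allele, with a median difference of 0.27, or 0.13 without replicate 2. Of these, 2 (*GLK1* and *PYK2*) did not overlap (11.1%, against 5.09% of all genes that lay higher). The median of the list read −0.46, −0.80 and −0.0051 on the *S. cerevisiae* arrays and −0.36, −0.63 and 0.31 on the *S. paradoxus* arrays, so that the groups overlapped, while within each replicate number the *S. paradoxus* array read higher.

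**Figure D4:**
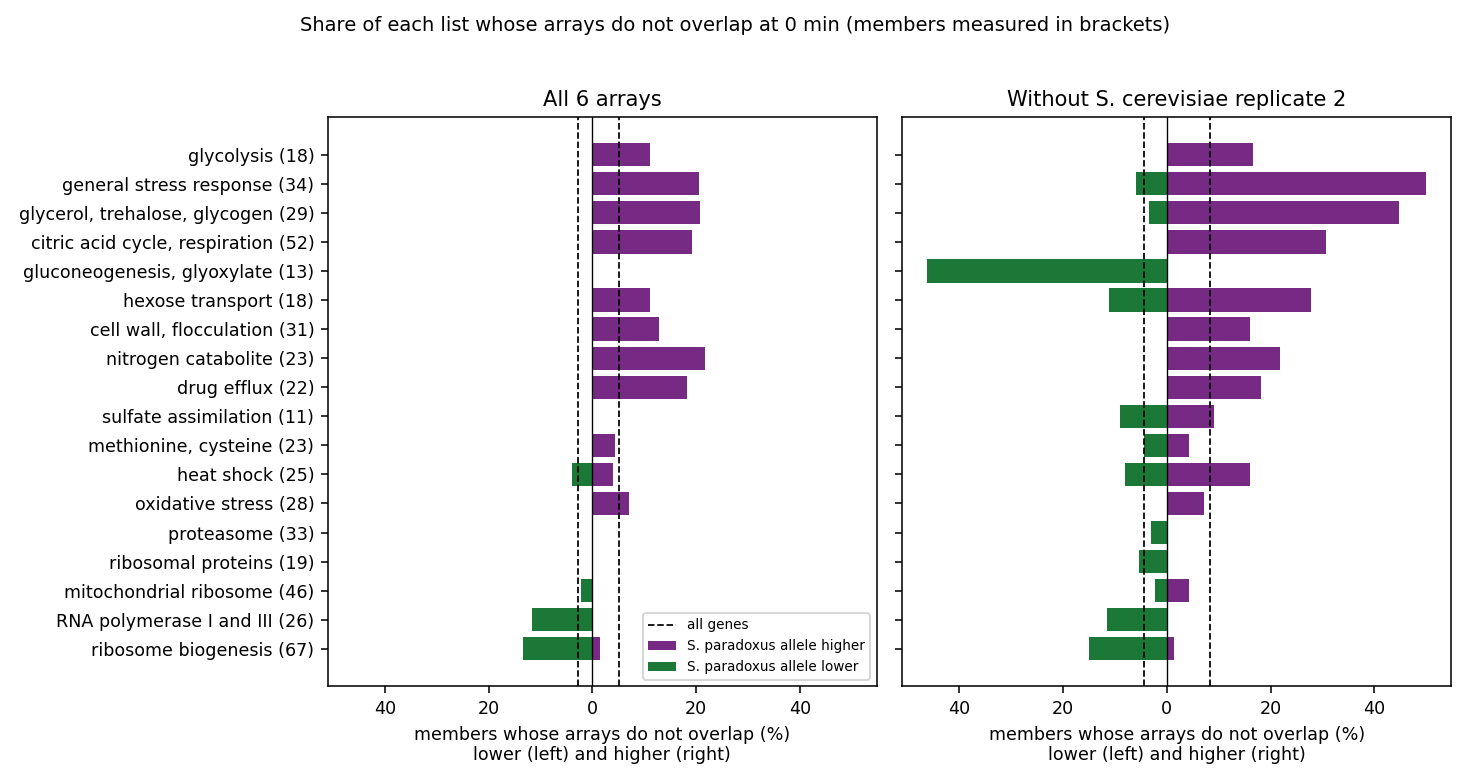
Share of each list's measured members (number in brackets) whose *S. paradoxus* arrays all lay above (to the right) or all below (to the left) the *S. cerevisiae* arrays at 0 min, in percent, with all arrays and without *S. cerevisiae* replicate 2. The dashed lines mark all genes, at 5.09% and 2.68% on the left and at 8.33% and 4.35% on the right. In both panels the general stress, storage carbohydrate, respiration, nitrogen catabolite and drug efflux lists, among others, extend past theirs to the right. Ribosome biogenesis and RNA polymerase I and III extend past theirs to the left.

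Ribosome biogenesis lay the other way. Of 67 measured genes, 9 lay lower on all *S. paradoxus* arrays (13.4%, against 2.68% of all genes) and 1, *NOP4*, higher. Its median read 0.91, 0.87 and 0.88 with the *S. cerevisiae* allele and 0.74, 0.79 and 0.83 with the *S. paradoxus* allele, without overlap. Without replicate 2, 10 lay lower (14.9%, against 4.35% of all genes). Its median difference was −0.09, or −0.10 without replicate 2. The difference stood mainly in the Cy3 arrays, with a median of −0.14, and was −0.03 in Cy5. Of 26 subunits and factors of RNA polymerase I and III, 3 (*RPC10*, *RPC37* and *RRN11*) lay lower (11.5%, against 2.68% of all genes) and 0 higher. The list of gluconeogenesis and the glyoxylate cycle had a median difference of −0.16, with 11 of 13 means lower, and 0 without overlap. Without replicate 2 its median was −0.28 and 6 genes lay lower (46.2%, against 4.35% of all genes).

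Some other lists had shares near those of the stress, storage carbohydrate and respiration lists, on small counts. Of 23 genes under nitrogen catabolite repression, 5 (*GAP1*, *DAL2*, *DAL4*, *PUT2* and *UGA2*) lay higher (21.7%, against 5.09% of all genes) and 0 lower. Their median difference was 0.10. Of 17 amino acid permeases, 3 (*GAP1*, *AGP1* and *BAP3*) lay higher (17.6%) and 0 lower. Of 22 genes of drug efflux and weak acid resistance, 4 lay higher (18.2%), *TPO2*, *TPO3*, *TPO4* and *YGP1*, with a median of 0.08. The median difference of 31 cell wall and flocculation genes was 0.21, while the median level spread from −0.27 to 0.28 over the *S. cerevisiae* arrays, and 4 genes, *PIR3* among them, did not overlap (12.9%). Without replicate 2 the median was 0.11. Of 33 proteasome genes and of 30 genes of ergosterol synthesis, 0 lay apart in either direction with all arrays. Over all genes 5.09% lay higher and 2.68% lower, which on lists of this size is few genes. The mating type could not be read from ratios to a pool, but the 7 measured a-specific genes had a median difference of −0.03 and 0 without overlap.

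The difference before sulfite was also set beside the sulfite response, measured on arrays that the comparison at 0 min did not use. A gene was put in a group by its mean at 15 min minus that at 0 min in both chimeras. For 366 genes that difference was over 1 (log2) in both chimeras, and for 364 genes it was under −1 in both. Of the genes that rose in the chimeras, 56 lay higher on all *S. paradoxus* arrays at 0 min (15.3%) and 5 lower, against 4.46% and 2.46% of the 3341 remaining genes, and 283 (77.3%) had a higher mean. Without replicate 2 these were 106 (29.0%) and 12 (3.28%), against 6.86% and 4.13% of the remaining genes. Of those that fell, 2 lay higher and 22 lower (6.04%), and 225 (61.8%) had a lower mean. The median of the genes that rose read −1.21, −1.15 and −1.17 on the *S. cerevisiae* arrays and −1.07, −1.06 and −1.09 on the *S. paradoxus* arrays, without overlap. The median difference was 0.12 in each dye, and 0.13 without replicate 2, so that as a group these genes were offset with the *S. paradoxus* allele in the direction they take after sulfite. Since they lay below the pool at 0 min, that direction is also toward 0. An offset toward 0 and one along the response cannot be told apart here. For the genes that fell the array medians overlapped, and the median difference was −0.05, at −0.07 in Cy3 and 0.03 in Cy5. These are descriptions with no test, since genes of a group do not vary independently.

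**Figure D5:**
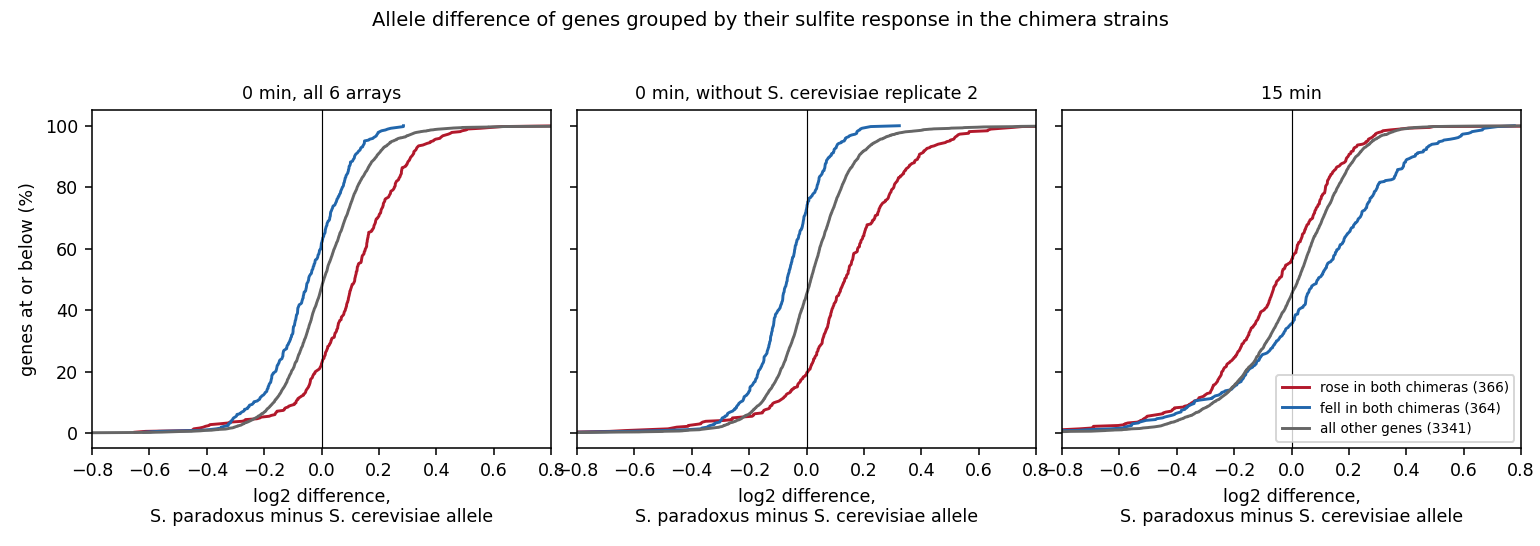
Cumulative share of genes (vertical axis, percent) by their log2 difference between the alleles (horizontal axis, cut at −0.8 and 0.8), for genes whose mean in both chimeras was over 1 higher (red) or lower (blue) at 15 min than at 0 min and for all other genes (grey). At 0 min the red curve lies to the right of the grey one, with a median of 0.12, and at 15 min it lies to the left, with a median of −0.04.

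For most of these genes the direction at 0 min was not that at 15 min. Of the 207 genes that lay higher on all *S. paradoxus* arrays at 0 min, 53 (25.6%) had a higher mean with that allele at 15 min, against 54.8% of all genes, and 12 lay higher on all arrays again (5.80%, against 5.63% of all genes). Of the 108 genes that lay lower, *FZF1* aside, 25 (23.1%) had a lower mean at 15 min, against 45.2% of all genes, and 2 lay lower again (1.85%, against 4.15%). Without replicate 2 these shares were 37.5% of 339 genes and 31.2% of 176 genes. *GLK1* differed by 0.63 at 0 min and by −0.34 (SE 0.17) at 15 min, and *GLC3* by 0.41 and −0.34 (SE 0.15), while *TPS1* and *CIT1* differed by −0.03 and −0.02 at 15 min. *SSU1* kept its direction. The test of the difference at 15 min against that at 0 min called 0 of 4071 genes by limma (0%), and 391 genes had an unadjusted p under 0.05. With array weights it called 205 genes. The arrays of both times come from the same cultures but are separate hybridisations, and the fit did not pair them by culture. With a replicate block 590 genes had an unadjusted p under 0.05 for this change, and with a dye term 712. Each of these settings called 0 genes.

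The chimeras carry 1 region of each allele and lay on both sides of the midpoint between the full length alleles. For the 207 higher genes, the C.P. mean was nearer to the *S. paradoxus* mean than to the *S. cerevisiae* mean in 139 (67.1%) and the P.C. mean in 108 (52.2%). For the 108 lower genes these were 75 (69.4%) and 48 (44.4%). Without replicate 2 the shares of the higher genes were 74.9% and 60.8% and those of the lower genes 67.6% and 52.3%, so that the P.C. share of the lower genes moved past the middle. The means of *GLK1* were −2.34 for the full length *S. cerevisiae* gene, −2.04 for the P.C. chimera, −1.68 for the C.P. chimera and −1.72 for the full length *S. paradoxus* gene, and those of *CIT1* were −1.42, −1.37, −1.13 and −1.11 in that order. *LOC1* read 1.29, 0.43, 0.29 and 0.67, so that both chimeras lay below both full length alleles. *BAG7* read −3.42, −2.69, −2.66 and −2.56, with the *S. cerevisiae* allele apart from the rest. Since the genes were chosen for the spread of the full length alleles, a chimera that lies between them is no test of either region.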

How the data were processed

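RNA of 24 samples was hybridised to Agilent yeast V2 arrays in 2 colours, each sample against a pool of all samples. The authors deposited log2 ratios, in which the sample is divided by the pool and each array is median normalized. Background correction and the filter behind empty features are not given in the sources used here. Probe numbers of the value table and of the probe annotation run along opposite directions of the same grid, so features were matched by position: the 2 features of a gene then had a median correlation of 0.929 over 4040 genes, against −0.0085 under equal numbers. Of 15744 features, 8152 carry 1 gene symbol, for 4073 genes, and 7592 carry none and were left out. Symbols were brought up to date for 125 genes, and 4065 symbols matched the RefSeq gene table.

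The features of a gene were averaged, and the median over named genes was subtracted on each array. limma 3.58.1 (R 4.3.3) was fitted to the means of 8 groups (4 alleles, 2 times) over the 4071 genes measured on 2 or more arrays in each group, and p-values were adjusted by Benjamini-Hochberg over all genes with a limit of 0.05. The contrast was the *S. paradoxus* minus the *S. cerevisiae* allele at 0 min, and the test was also run on simulated data. Single values were set against exact permutation tests, two-sided. Counts, medians and plots used numpy 2.4.6, pandas 2.3.3, SciPy 1.17.1 and matplotlib 3.10.9 under Python 3.11.15. Array spots carry no read depth, and precision depends on the number of arrays and on the spread between them, that by dye included.

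Genes named are *FZF1*, *SSU1*, *YHB1*, *URA3*, *ZRT1* and *HXK2*, the 12 genes with the smallest p in each direction, the 8 with the smallest p in each direction without *S. cerevisiae* replicate 2, and the 2 with the smallest p in each of 38 gene lists; others are members of a count or chosen after their values were seen. The comparison, the members and the lists were chosen with earlier results of these data known. The groups by chimera response were added after the values were seen.

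Replicate numbers were checked as pairs: the deviations of same-numbered *S. cerevisiae* and *S. paradoxus* arrays from their group means correlated at 0.166, 0.491 and 0.679 for replicates 1, 2 and 3, and each array correlated best with its own number. The pairing rests on these values and on the dye that replicate 3 shares, since the labels name no common batch. Alternatives were a replicate block, a dye term, Cy3 arrays alone, other scalings and fits, and leaving out each array. No sequences are printed.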

Additional observations from a re-analysis of the deposited data

Results flagged for a closer look

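For 7 of the genes named by rule, the arrays of the alleles lay apart in opposite directions at 0 and at 15 min. The change of the allele difference from 0 to 15 min was tested across all genes, and 0 of 4071 genes passed the adjustment by limma. With array weights limma called 205 genes, these 7 among them, and in Cy3 arrays alone it called 2, *TPO4* among them. *TPO4*, a polyamine exporter, had the largest change of the 7 at −1.16 (unadjusted p = 0.000214 by limma), from 0.42 at 0 min to −0.74 at 15 min. *PYK2* had a change of −0.77, from 0.40 to −0.37, and *SOL1*, a relative of 6-phosphogluconolactonase, one of −0.53, from 0.25 to −0.28. In these the *S. paradoxus* arrays were all higher before sulfite and all lower after it. The reverse order held for *RRN11*, a subunit of the RNA polymerase I core factor, with 0.92 (−0.34 to 0.58), for *SOV1* with 0.71 (−0.36 to 0.35), for *RPC10*, a small subunit shared by RNA polymerases, with 0.63 (−0.24 to 0.39), and for *CDC14* with 0.57 (−0.27 to 0.30). The cause was not tested.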

How the results depend on the processing

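The count of genes called at 0 min was 0 under most settings. It was 1, *FZF1*, under quantile normalization, without *S. cerevisiae* replicate 2, and without that array together with a replicate block or a dye term. It was 2, *FZF1* and *BAG7*, with array weights and with Cy3 arrays alone without that array. The methods' analysis of variance, with features as observations and P under 0.01 without adjustment, gave 176, against 40.71 expected by chance. Leaving out each array gave 0 to 1, with 1 only for *S. cerevisiae* replicate 2. A fit on the 6 compared arrays alone gave 0, with *GLK1* rather than *FZF1* at the smallest p. The smallest p was that of *MGA1* in Cy3 arrays alone and that of *LOC1* without *S. cerevisiae* replicate 3. The *FZF1* difference of −3.78 passed as −3.22 under quantile normalization, −4.54 with array weights, −5.01 without that array, −4.98 with a replicate block and −4.91 with a dye term without it, −5.42 in Cy3 without it, and −3.78 in the analysis of variance; over arrays left out it ran from −5.01 to −3.10. The *URA3* difference of −0.61 became 0.43 without that array, 0.41 with a replicate block too, 0.52 with a dye term and 0.37 in Cy3, and ran from −1.16 to 0.43 over arrays left out. *YHB1* (−0.085) became 0.034, 0.039, 0.057 and 0.055 under the same settings, and ran from −0.21 to 0.034 over arrays left out. *ZRT1* (0.097) became −0.093 in Cy3, −0.078 with array weights, −0.20 in Cy3 without that array and −0.084 without *S. paradoxus* replicate 3, and ran from −0.084 to 0.21 over arrays left out. The count for a change from 0 to 15 min was 0, but 2 (*MGA1* and *TPO4*) in Cy3, 205 with array weights and 1 (*BAG7*) in Cy3 without that array; the cause was not tested. The replicate block gave 0 calls at 0 min, with 178 genes at an unadjusted p under 0.05, and an adjusted p for *FZF1* of 0.108 by limma; it changed no other call.

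Without any 1 array the genes that did not overlap were 322 to 430 higher and 177 to 314 lower, against 207 and 109, since 2 arrays overlap less easily than 3. Quantile normalization gave 138 and 110, and no centring 189 and 116. Quantile normalization also moved the median difference of 5 lists by at least the SD of their array medians, and 33 stayed within it. The groups by chimera response were not computed under quantile normalization. The median of the genes that rose in the chimeras ran from 0.092 to 0.13 over arrays left out, and that of the genes that fell from −0.083 to −0.0041. Depth does not apply to these arrays; signal over background was not used here.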

Other observations

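Differences past 1 (log2) in either direction were found in 7 genes, and for those other than *FZF1* and *IME4* the arrays of the groups overlapped. They were chosen after their values were seen. *SMA2*, *SPO20* and *SPS2*, all known from spore formation, differed by 1.63, 1.12 and 1.04, *IME4*, an RNA methyltransferase of meiosis, by 1.04, *ECM34* by 1.44 and *ECM23* by −1.88. *SMA2* read −2.46, −0.54 and −0.47 with the *S. cerevisiae* allele and 0.87, −1.14 and 1.70 with the *S. paradoxus* allele, so the arrays overlapped. *IME4* read −0.50, −1.16 and −0.46 against 0.02, 0.02 and 0.94, without overlap (SE 0.39, unadjusted p = 0.0159 by limma). The signal intensities behind these ratios were not used here.

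The 17 measured genes of the mitochondrial genome separated the arrays by dye: their median read 0.88 and 0.52 in Cy3 and −0.81 in Cy5 with the *S. cerevisiae* allele, and 0.76 and 0.61 in Cy3 and −0.12 in Cy5 with the *S. paradoxus* allele. For 0 of them did the arrays of the alleles lie apart, against 5.09% of all genes higher and 2.68% lower. Among the measured neighbours of *SSU1* on chromosome XVI, *NOG1* and *GLR1* on either side differed by 0.06 and 0.05 (−0.06 and 0.08 without *S. cerevisiae* replicate 2), with *SSU1* at 0.55.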
